A study of Mus musculus with 4 samples.

Results

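Mature neutrophils of the fracture callus were chosen from the scRNA-Seq barcodes by their transcripts. A barcode was kept when it held at least 500 UMIs (unique molecular identifiers, the tags by which captured RNA molecules are counted once each) and at least 200 genes, with at most 10% of its UMIs mitochondrial. It was counted as a mature neutrophil when S100a8 and S100a9, the subunits of calprotectin, made up at least 1% of its UMIs and the granule genes Ngp, Camp and Ltf together under 0.3%. The rule found 2558 cells among the 14451 callus barcodes that passed the filters and the 23216 of all 4 libraries.

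The animals were male C57BL/6J mice, 20 weeks old, that received prednisolone, a synthetic glucocorticoid (GC), at 6.25 mg/kg/d, or placebo in the control group. The labels describe a slow-release subcutaneous pellet and sampling at week 2 for all libraries, whereas the study's text describes daily injection in the fracture model. Callus tissue and trabecular bone were crushed and digested with collagenase and dispase, and each tissue and treatment gave 1 10x Genomics library, with the number of mice behind it not given in the sources used here. There are therefore no replicates, every interval below is a 95% interval for counting error only, and no test between conditions was possible. Differences between treatments cannot be told apart from differences between libraries.

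Neutrophils are short-lived granulocytes that are made in the marrow and enter injured tissue first. They load granules in a fixed order while they mature, azurophil granules (Mpo, Elane) before specific granules (Ltf, Camp) and gelatinase granules (Mmp9), and they stop transcribing most granule genes once mature. In tissue they release chemokines and cytokines, among them Cxcl2, which draws further neutrophils through the receptor Cxcr2, and interleukin 1 beta (Il1b). Glucocorticoids act through the receptor Nr3c1, which raises genes such as Fkbp5 and Tsc22d3 and lowers many NF-kB and AP-1 targets.

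The control callus library held 95852254 UMIs and the GC callus library 64388215. The GC callus file lists only barcodes of at least 500 UMIs, and the other 3 files also list barcodes of nearly empty droplets. In control callus 1435 of 7133 barcodes that passed the filters met the rule, a share of 20.1% (Clopper-Pearson interval, 19.2% to 21.1%). In GC callus 1123 of 7318 did, a share of 15.3% (14.5% to 16.2%). These intervals cover the counting of cells within a library and do not compare the treatments. The members were shallow, with a median of 1321 UMIs and 644 genes in control and 1164 UMIs and 595 genes in GC, against a median of 9233.5 and 4383 UMIs in the remaining callus barcodes. Their median calprotectin share was 4.20% and 3.69%. Few lay near the limits of the rule: 41 control and 53 GC members had a calprotectin share of 1% to 1.2%, and 51 and 46 barcodes just missed it, at 0.8% to 1%. Those 41 control members held Col2a1 at 29576 CPM (UMIs of a gene per 1000000 UMIs summed over the cells), against 2657 CPM in the 51 that just missed. The neutrophil gene Csf3r was at 194 and 328 CPM in these 41 and 51, and Cxcl2 at 5006 and 10181 CPM. In GC, members and barcodes that just missed held Csf3r at 368 and 361 CPM and Cxcl2 at 2848 and 2709 CPM. Barcodes with neutrophil RNA thus also lie just below the limit, and the shares above leave them out. At the granule limit, 6 control and 23 GC members had a share of 0.2% to 0.3%, with Col2a1 at 35368 and 11000 CPM. Another 9 and 12 barcodes just missed that limit, at 0.3% to 0.4%, with Col2a1 at 2019 and 7820 CPM. No barcode sequence was a member in both callus libraries, and 12 were shared among all barcodes that passed.

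The label was checked against marker genes. Csf3r, the G-CSF receptor, was at 457 CPM in control and 420 CPM in GC, and at 0 CPM in callus B-lineage cells, which should lack it and serve here as the measure of free RNA. Cxcr2 stood at 248 and 182 CPM, also against 0 CPM in B-lineage cells. Ly6g, the antigen often used to sort mouse neutrophils, was low in RNA, at 21.7 and 13.9 CPM. The genes that stood furthest above all other callus barcodes in both libraries included Il1f9, Il1rn, Hdc, Csf3r, Asprv1, Ifitm1, Cyp4f18, Srgn, Acod1 and Stfa2l1. Among genes of other myeloid cells, C1qa, of macrophages, was at 8.93 and 3.98 CPM, and the eosinophil gene Epx had no UMI. The 7 monocyte markers summed to 1049 and 1069 CPM, against 450 and 368 CPM in B-lineage cells. Fn1, which skeletal cells also express, was the most abundant at 671 and 719 CPM. Ly6c2 was at 102 and 115 CPM and Ccr2 at 20.0 and 4.64 CPM. Without doublets the order of Ccr2 turned, to a log2 ratio of 0.051. The 9 dendritic markers summed to 344 and 507 CPM, and Clec9a had no UMI. Of the 4 measured, 2 (Cd74 and H2-Eb1) were higher in GC by at least 1.5-fold, where 11.5% of all genes measured were. In at least 11 of 19 alternative settings Cd74 was no longer higher by 1.5-fold, and H2-Eb1 was within 1.5-fold in 6. The order of Cd74 turned when doublets were left out, and its log2 ratio was -1.20 with at least 5% calprotectin. Over the 8 macrophage markers the sum was 248 and 316 CPM, with Cd163 at 0.

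RNA of other callus cells was present in the members. The 11 chondrocyte markers summed to 9876 CPM in control and 4688 CPM in GC. All 11 were lower in GC by at least 1.5-fold, where 13.4% of all genes measured were. In B-lineage cells of the same libraries the same sums were 4110 and 1698 CPM. In control, 5 cells with at least 5% of their UMIs in these genes held 55.7% of them, and without those cells and the 7 GC cells past the same limit the sums were 4690 and 3660 CPM. Without doublets, the log2 ratio was -0.31 for Col2a1 and 0.33 for Acan, so neither was lower by 1.5-fold. Acan came within 1.5-fold in 7 of 19 settings. The 4 adult hemoglobin genes moved the other way, each higher in GC by at least 1.5-fold, where 11.5% of all genes measured were. Hbb-bs was at 670 and 1849 CPM in the members and at 122 and 286 CPM in B-lineage cells. The 5 control and 11 GC cells with at least 1% hemoglobin UMIs held 78.3% and 79.4% of them, and the other cells held 209 and 650 CPM. With at least 2% calprotectin the log2 ratio of Hbb-bs was 0.20, within 1.5-fold. The mitochondrial gene mt-Atp8 was higher in GC in neutrophils (43.8 and 230 CPM), in B-lineage cells (156 and 900 CPM) and in all remaining callus barcodes (60.3 and 273 CPM), and so was AY036118, with 238 and 883 CPM in the members and 342 and 1115 CPM in B-lineage cells. These 2 genes were thus higher in every class compared, and the part of such library-wide values in the results below was not tested.

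Between the libraries, 5510 genes had at least 50 UMIs over both. Of these, 633 (11.5%) were higher in GC by at least 1.5-fold after adding 5 CPM to each value, and 737 (13.4%) were lower. The median log2 ratio of GC over control was -0.04. These shares are the background for each count of GC over control in callus, above and below. Those for trabecular bone are 9.04% higher and 3.2% lower. The lowest ratios among genes of at least 100 CPM belonged to Cxcl3, Id1, G0s2, Ctsg, Il1b, Egln3, Ier3, Rgs1, Osm and Cxcl2. The highest belonged to Tnf, mt-Atp8, Hba-a2, Hba-a1, Gm15832, Gm20406, Slc40a1, Map3k8, AY036118 and Hbb-bt.

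The proximal promoters of 4 of these genes are shown because the same family of signals, NF-kB, is known to switch on all of them, yet they differed in direction here. The stretches are the 250 bases before the RefSeq start on GRCm38.p6, 5′ to 3′ on the strand of the gene. Capitals mark matches to an NF-kB motif of GGG, any 3 bases and TTCC on either strand, where matches may overlap.
Cxcl2, chr5:90903649-90903898, plus strand: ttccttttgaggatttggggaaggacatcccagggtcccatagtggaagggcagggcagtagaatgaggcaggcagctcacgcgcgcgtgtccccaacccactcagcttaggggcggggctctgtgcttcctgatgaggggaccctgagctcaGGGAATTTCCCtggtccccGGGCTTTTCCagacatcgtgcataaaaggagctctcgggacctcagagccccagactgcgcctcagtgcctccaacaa
Cxcl3, chr5:90785851-90786100, plus strand: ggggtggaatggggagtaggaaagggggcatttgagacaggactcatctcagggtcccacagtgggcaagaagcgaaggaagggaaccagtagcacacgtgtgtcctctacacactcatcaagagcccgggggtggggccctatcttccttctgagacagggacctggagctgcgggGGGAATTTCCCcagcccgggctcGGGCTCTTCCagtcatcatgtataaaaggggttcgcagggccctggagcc
Il1b, chr2:129371140-129371389, minus strand: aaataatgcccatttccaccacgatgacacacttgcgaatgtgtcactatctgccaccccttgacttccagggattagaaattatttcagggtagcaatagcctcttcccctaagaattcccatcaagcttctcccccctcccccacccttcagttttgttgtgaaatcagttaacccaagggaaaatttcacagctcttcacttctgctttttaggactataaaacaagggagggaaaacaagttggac
Tnf, chr17:35202008-35202257, minus strand: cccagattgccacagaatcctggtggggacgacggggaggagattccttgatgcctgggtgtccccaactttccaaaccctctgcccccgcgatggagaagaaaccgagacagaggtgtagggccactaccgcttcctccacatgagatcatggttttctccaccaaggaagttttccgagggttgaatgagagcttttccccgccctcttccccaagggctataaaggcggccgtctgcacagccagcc
The window of Cxcl2 held 3 matches, at 97, 96 and 78 bases before the start, and that of Cxcl3 held 3, at 73, 72 and 50 bases before it. The first pair in each window are overlapping matches on opposite strands, offset by 1 base. The windows of Il1b and Tnf held no match to these letters. Of 3 further windows searched, that of Csf1, which was higher in GC, held 1 match, and those of Ccl3 (higher) and Ier3 (lower) held none. Of 32817 promoter windows of this length in the table, 4.65% held at least 1 match.

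The Cxcr2 ligands Cxcl2 and Cxcl3 were far lower in GC callus, and Cxcl2 was the most abundant gene of the secreted mediator list in both callus libraries. Cxcl2 stood at 14492 CPM (14339 to 14647) in control and 3303 CPM (3211 to 3396) in GC, which is 4.39-fold lower (4.26 to 4.52). In trabecular mature neutrophils, chosen by the same rule, it stood at 6488 CPM in control and 7973 CPM in GC. Control callus was thus the highest of the 4 libraries and GC callus the lowest. Cxcl3, a related Cxcr2 ligand on the same chromosome, was at 550 CPM and 59.0 CPM in callus, 9.31-fold lower (7.51 to 11.7), and at 103 and 197 CPM in trabecular bone. Its direction therefore differed between the tissues. In B-lineage cells of the callus Cxcl2 was at 38.9 and 20.5 CPM.

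Il1b, the secreted inflammatory cytokine, followed the same order in callus. It was at 4831 CPM (4742 to 4920) in control and 882 CPM (835 to 931) in GC, 5.48-fold lower (5.17 to 5.80), against 3526 and 3068 CPM in trabecular bone. Among trabecular cells of at least 10% calprotectin, the log2 ratio was -0.79 in place of -0.20. Its antagonist Il1rn, which occupies the receptor without signaling, was higher in GC, at 1086 and 1842 CPM, or 1.70-fold (1.61 to 1.79). Il1rn was much lower in trabecular bone, at 127 and 86 CPM. Il1r2, the decoy receptor, was at 496 and 306 CPM in callus and at 1523 and 2154 CPM in trabecular bone. Il1f9, another agonist of the interleukin 1 family, was at 244 and 446 CPM in callus. Members of this family thus did not share a direction.

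Osm (oncostatin M), an interleukin 6 family cytokine known to act on bone-forming cells, was at 830 and 184 CPM in callus, 4.52-fold lower in GC (3.98 to 5.14), and at 253 and 178 CPM in trabecular bone. The growth factor Vegfa, which drives vessel growth, was at 373 and 198 CPM in callus and at 140 and 42.0 CPM in trabecular bone. It was lower in GC in both tissues. Ptgs2, the inducible cyclooxygenase, was at 504 and 245 CPM in callus and at 219 and 144 CPM in trabecular bone.

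Other secreted products were higher in GC callus. Tnf was at 56.6 CPM (47.4 to 67.0) in control and 320 CPM (292 to 350) in GC, 5.66-fold higher (4.67 to 6.92), and at 41.4 and 127 CPM in trabecular bone. GC was the higher library in both tissues. Csf1, the main growth factor of macrophages and osteoclast precursors, was at 364 and 716 CPM, 1.96-fold higher (1.79 to 2.15), and at 41.4 and 66.1 CPM in trabecular bone. Both callus libraries lay above both trabecular libraries for Csf1. The chemokine Ccl3, a ligand of Ccr1, was at 347 and 694 CPM in callus (2.00-fold, 1.82 to 2.20) and at 73 and 176 CPM in trabecular bone. Tnfsf14, a ligand of the TNF superfamily, was at 89.7 and 229 CPM in callus and at 42.7 and 39.1 CPM in trabecular bone. Il10, an antiinflammatory cytokine, rested on 10 and 45 UMIs.

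**Figure D1:**
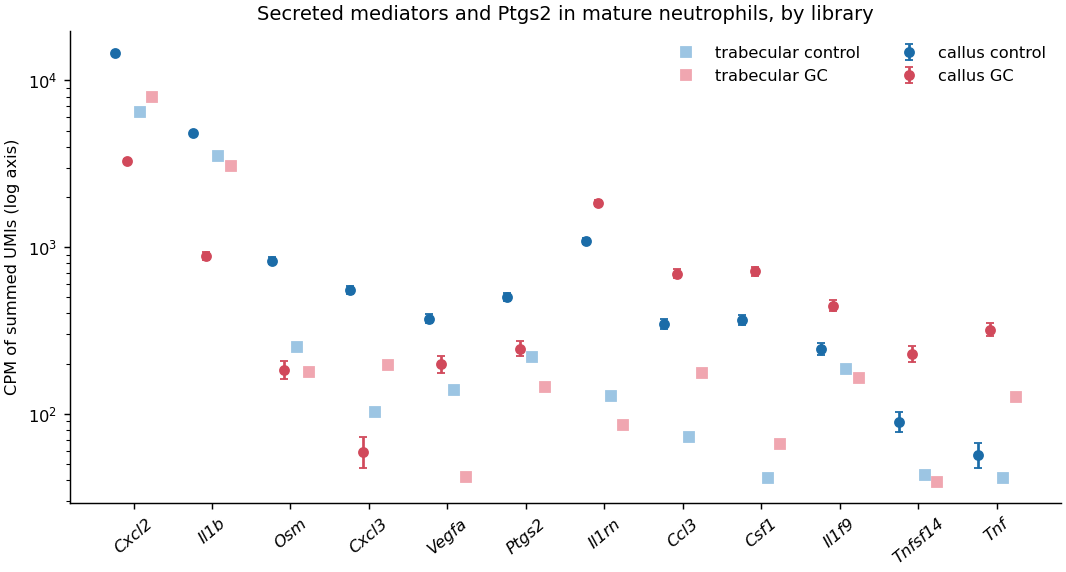
CPM of 12 genes (log axis) in mature neutrophils of the 4 libraries. Circles are callus with 95% Poisson intervals, and squares are trabecular bone, drawn without intervals. From Cxcl2 to Ptgs2 the callus control value lies above the callus GC value, and from Il1rn to Tnf it lies below.

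Over the whole list of secreted inflammatory mediators, 7 of 20 genes measured were higher in GC and 7 lower, with a median log2 ratio of -0.31. The other lower members were Thbs1 and Hbegf, an EGF receptor ligand whose order turned when doublets were left out, and the other higher member was Tgfb1. The summed level of the list was 33093 CPM in control and 17273 CPM in GC. In trabecular bone 10 of 23 were higher and 5 lower, where 9.04% and 3.2% of all 8221 genes were. The trabecular median over all genes was 0.21, so ratios there sit on a raised base. Of the 47 genes named here that passed 1.5-fold in trabecular bone, 31 still did among cells of at least 10% calprotectin, and Csf1, Hmox1 and Tnfaip3 did not.

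The lower level of Cxcl2 and Il1b was seen across the cells. In a control cell at the median, Cxcl2 made up 1.21% of all UMIs, and in a GC cell 0.175%. Only 5.88% of GC cells lay above the control median for Cxcl2, and 7.21% for Il1b. After each cell was thinned to 500 UMIs, 89.97% of control and 58.1% of GC members had a Cxcl2 UMI, and the unthinned shares were 95.2% and 74.7%. For Il1b the thinned shares were 70.3% and 29.8%. Tnf had the reverse order, with 2.16% and 13.9% of members, and Csf1 with 16.3% and 25.3%. In B-lineage cells, with median depths of 1922.5 and 1673 UMIs, the Cxcl2 shares were 1.72% and 1.85% and the Csf1 shares 0.575% and 1.85%, below those of the members.

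**Figure D2:**
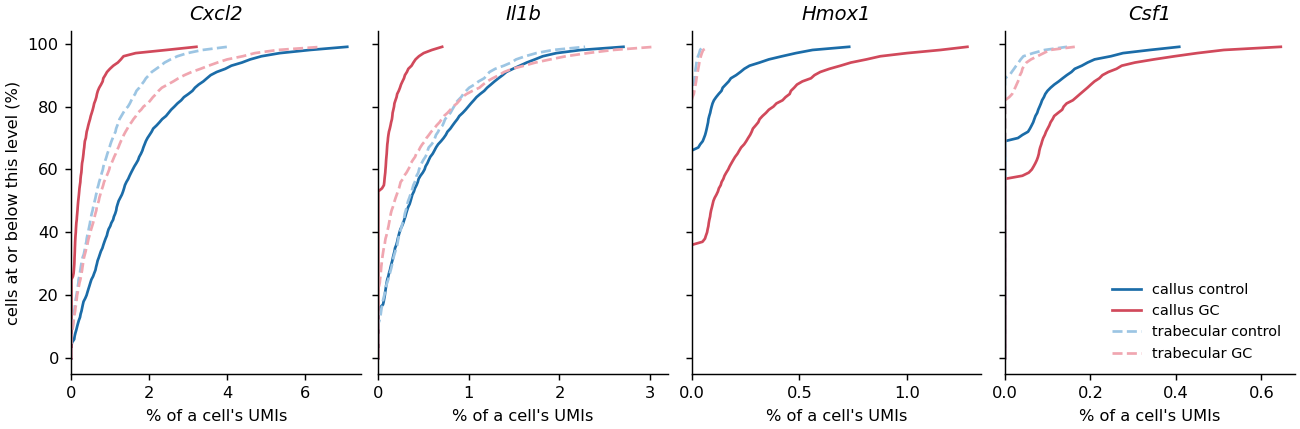
Share of a cell's UMIs taken by Cxcl2, Il1b, Hmox1 and Csf1 (horizontal axis) against the percent of mature neutrophils at or below that share, for callus (solid lines) and trabecular bone (dashed lines) up to percentile 99. The callus GC curve lies to the left of callus control for Cxcl2 and Il1b and to its right for Hmox1 and Csf1.

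Cells were also divided by their calprotectin share, which the rule used only as a minimum. Retnlg, a resistin-like gene of marrow neutrophils, was at 1044 CPM in control cells of 1% to 2% calprotectin and 14340 CPM in those over 10%, and in GC at 896 and 13384 CPM. Csf1 ran the other way in GC, from 802 to 391 CPM, and Vegfa in both libraries, from 459 to 251 CPM in control and from 294 to 54.3 CPM in GC. Ptgs2 went from 690 to 334 CPM in control and from 492 to 76.0 CPM in GC. In each of the 4 divisions GC cells held less Il1b, with 3855 against 768 CPM in the lowest and 4851 against 879 CPM in the highest. The same held for Cxcl2, with 11021 against 3246 CPM and 12653 against 2371 CPM. Col2a1 was highest in the lowest division of each library, at 10369 CPM in control and 5650 CPM in GC, and its part in these gradients was not tested.

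**Figure D3:**
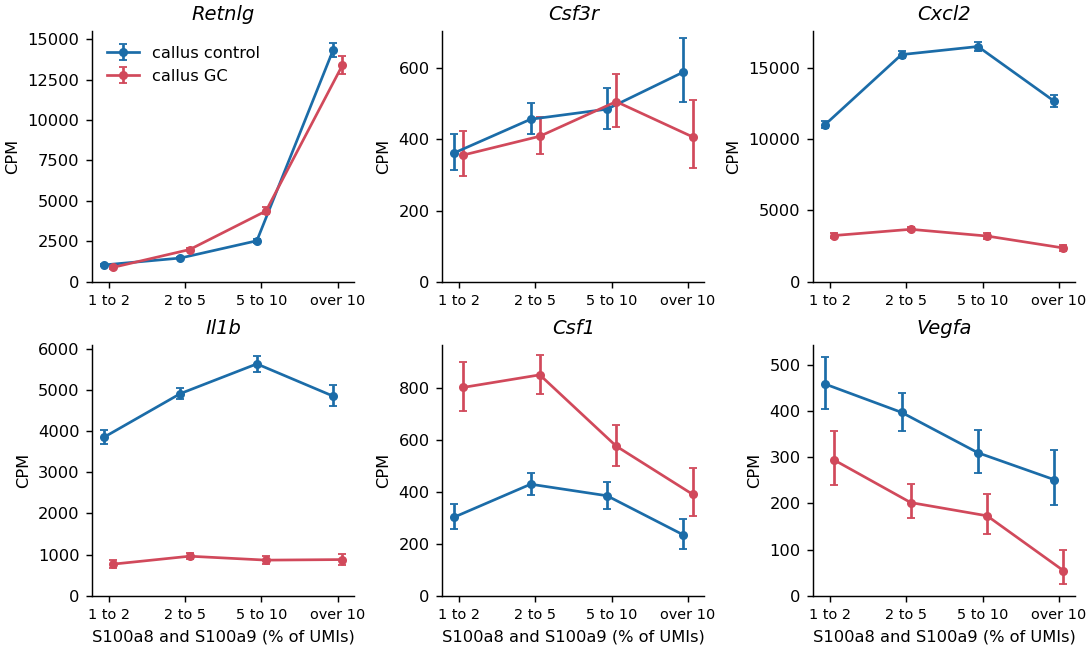
CPM of 6 genes in callus mature neutrophils divided by their share of S100a8 and S100a9 UMIs (horizontal axis, %), with 95% Poisson intervals. Retnlg reaches 14340 CPM in control and 13384 CPM in GC in the highest division, while the GC values of Cxcl2 and Il1b lie below control in all 4 divisions.

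Cells were also ranked by Cxcl2 share into 4 equal groups, and a few genes, chosen with their values known, were compared across them. The ranking was made within each library. Cxcl2 itself was at 1681 CPM in the lowest and 37084 CPM in the highest group of control, and at 0 and 10842 CPM in GC. Groups of the same rank are therefore not alike between the libraries. Ccl3 went from 77.8 CPM in the lowest to 956 CPM in the highest group of control, and from 368 to 1412 CPM in GC. Nfkbia, which encodes the inhibitor of NF-kB that its own target genes include, went from 1021 to 2660 CPM and from 1072 to 3763 CPM. Tnf went from 28.5 to 117 CPM and from 211 to 566 CPM. Slpi, a secreted inhibitor of neutrophil elastase, went from 2269 to 6710 CPM and from 3056 to 6196 CPM. Retnlg was highest in the group lowest in Cxcl2, at 4835 CPM in control and 5498 CPM in GC. Ptgs2 did not follow Cxcl2 in GC, at 206 CPM in the lowest and 184 CPM in the highest group. The lowest control group also held Col2a1 at 11271 CPM, against 2543 CPM in the highest. These groups share their cells, depth and free RNA with the ranking gene, so the values are a description.

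Of 22 NF-kB feedback genes measured, 3 were higher in GC and 2 lower, near the shares over all genes (11.5% and 13.4%), with a median log2 ratio of 0.18. Nfkbia was at 1743 and 2024 CPM, 1.16-fold higher (1.11 to 1.22). Tnfaip3 (A20), a deubiquitinase that ends NF-kB signaling, was at 189 and 403 CPM, 2.14-fold higher (1.89 to 2.42), and at 105 and 220 CPM in trabecular bone. The kinase gene Map3k8, which acts upstream of ERK after toll-like receptor signals, was at 33.2 and 135 CPM. Ier3 and Zfp36 were lower in GC, as Cxcl2 was. Ier3, an immediate early gene tied to cell survival, was at 1405 and 295 CPM, 4.77-fold lower (4.32 to 5.28), and at 525 and 526 CPM in trabecular bone. Zfp36 (tristetraprolin), which destabilizes cytokine mRNAs, was at 733 and 425 CPM.

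Immediate early genes divided as well. Of 27 AP-1 and dissociation stress genes, 8 were lower in GC and 3 higher, with a median log2 ratio of -0.09. Egr1 was at 1449 and 471 CPM (3.08-fold lower, 2.84 to 3.34), Junb at 1915 and 710 CPM, and the antiproliferative gene Btg2 at 896 and 261 CPM. The 3 higher genes were Atf3, a stress-induced repressor, at 203 and 464 CPM, Ier5 at 233 and 564 CPM, and Klf6 at 1032 and 1771 CPM. Cebpb, a transcription factor of emergency granulopoiesis and cytokine genes, was at 3801 and 1637 CPM in callus but at 3940 and 3764 CPM in trabecular bone. Digestion itself is known to induce many of these genes. The part of handling in these values was not tested, and it cannot be told apart from treatment with 1 library each.

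Genes that the glucocorticoid receptor is known to raise showed no upward shift in GC callus. Of 22 genes of this list measured, none was higher by at least 1.5-fold and 5 were lower (Cebpb, Dusp1, Errfi1, Il1r2 and Tgm2), with a median log2 ratio of -0.05. Tgm2, at a log2 ratio of -0.62, was within 1.5-fold in 3 of 19 settings. Fkbp5, a cochaperone of the receptor, was at 13.6 CPM (9.31 to 19.2) in control and 22.6 CPM (15.6 to 31.5) in GC, resting on 32 and 34 UMIs. The ratio of these levels was 1.66 (0.992 to 2.77), and it missed the 1.5-fold limit only through the 5 CPM added, which gave a log2 ratio of 0.57. In trabecular mature neutrophils it was at 14.2 and 107 CPM. Tsc22d3 (GILZ), which binds NF-kB and AP-1, was at 42.9 and 42.5 CPM in callus, a ratio of 0.988 (0.711 to 1.37), and at 64.3 and 217 CPM in trabecular bone. Klf9 was at 56.1 and 74.3 CPM in callus and at 18.1 and 121 CPM in trabecular bone, and the metallothionein Mt1 at 378 and 291 CPM and at 113 and 469 CPM. Control levels of Fkbp5 were alike in the tissues, and the GC values were not. The receptor gene Nr3c1 was at 184 and 173 CPM in callus and at 59.9 and 65.6 CPM in trabecular bone. In trabecular bone 7 of 24 genes of the list were higher and 5 lower, where 9.04% and 3.2% of all genes were. No test of the difference between tissues was possible, and it cannot be told apart from the way prednisolone was given.

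**Figure D4:**
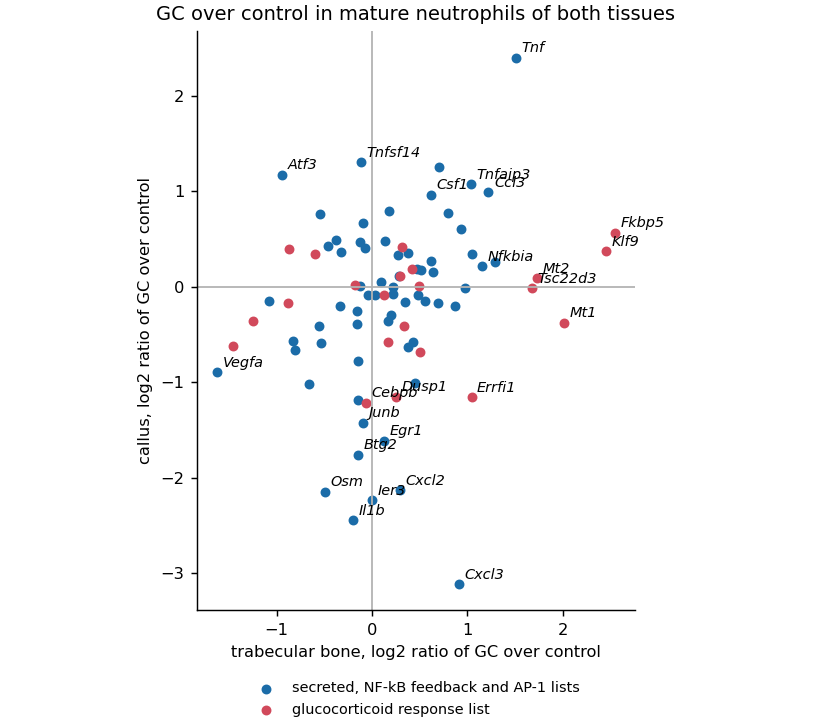
Log2 ratio of GC over control in trabecular (horizontal axis) and callus (vertical axis) mature neutrophils for 87 genes of 4 lists, with the glucocorticoid response list in red. Fkbp5, Klf9 and Tsc22d3 lie far to the right near the horizontal line, while Cxcl3, Il1b, Ier3 and Cxcl2 lie far below it near the vertical line or to its right.

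Most metabolic genes of glycolysis and the hypoxia response were lower in GC callus. Of 29 glycolysis and hypoxia genes measured, 16 were lower in GC and 2 higher, with a median log2 ratio of -0.69, and in trabecular bone 2 of 29 were lower and 3 higher. Hilpda, a hypoxia-induced lipid droplet protein, was at 593 and 151 CPM, 3.94-fold lower (3.42 to 4.55), and at 169 and 128 CPM in trabecular bone. Egln3, the oxygen sensor that hypoxia itself induces, was at 170 and 30.5 CPM, 5.56-fold lower (4.09 to 7.72), and at 13 and 14.2 CPM in trabecular bone. Ero1l was at 176 and 54.4 CPM and Ankrd37 at 53.2 and 9.95 CPM. Among the enzymes, Pgam1 was at 401 and 143 CPM and Eno1 at 379 and 180 CPM, while Gapdh (805 and 667 CPM) and Pkm (737 and 801 CPM) were within 1.5-fold. The glucose transporter Slc2a1 was at 264 and 126 CPM and the lactate exporter Slc16a3 at 335 and 151 CPM. The 2 higher genes encode hexokinases, Hk1 at 109 and 178 CPM and Hk3 at 74.4 and 172 CPM. Hk1 had a log2 ratio of 0.42 with at least 5% calprotectin, within 1.5-fold. Hif1a, the transcription factor that many of these genes answer to, was at 743 and 667 CPM. Fatty acid genes were fewer: 5 of 19 were lower and 2 higher. Plin2, which coats lipid droplets, was at 765 and 382 CPM. Cpt1a, the gate of mitochondrial fatty acid oxidation, was at 120 and 61.0 CPM. Etfb, at a log2 ratio of -0.95, was no longer lower by 1.5-fold in at least 4 of 19 settings. It turned to 0.87 with at least 5% calprotectin.

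**Figure D5:**
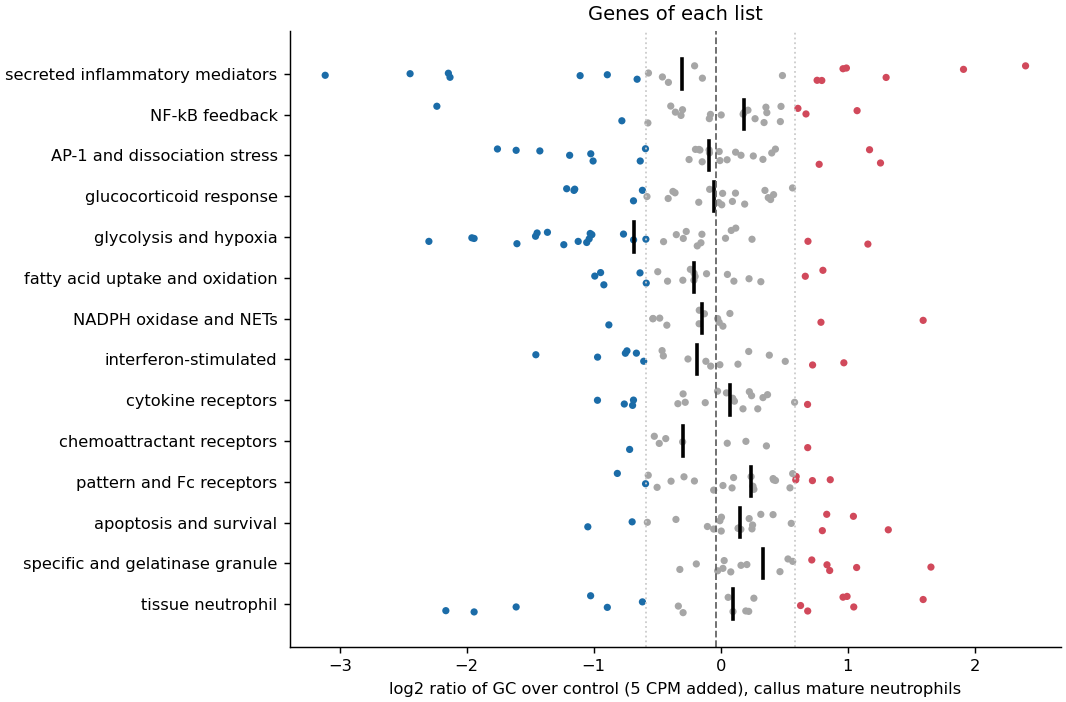
Log2 ratio of GC over control of each measured gene in 14 lists, callus mature neutrophils. Red and blue points pass 1.5-fold (dotted lines), black bars are list medians and the dashed line is the median of all genes tested. The glycolysis and hypoxia list has the lowest median of those drawn, -0.69, and the azurophil list, at -1.03, is among the 7 pathway lists not drawn.

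Several iron and heme genes stood higher in GC callus. They are no fixed list. Slc40a1 is among the 10 highest ratios, and Hmox1 and Nfe2l2 are on the NADPH oxidase list. The others were picked after their values were seen. Over the NADPH oxidase list 2 of 14 genes measured were higher in GC and 1 lower, with a median log2 ratio of -0.15. Hmox1, heme oxygenase 1, which breaks heme down, was at 686 CPM (653 to 720) and 2083 CPM (2011 to 2157), 3.04-fold higher (2.86 to 3.23), against 29.5 and 53.1 CPM in trabecular bone. Callus lay above trabecular bone by 23.3-fold in control and 39.3-fold in GC. Slc40a1 (ferroportin), the iron exporter, was at 72.7 and 298 CPM in callus and at 66.9 and 64.1 CPM in trabecular bone. The ferritin light chain Ftl1 was at 6450 and 10066 CPM, and the heavy chain Fth1, within 1.5-fold at 59500 and 64071 CPM, was the most abundant transcript of the control members. Nfe2l2 (NRF2), a known regulator of Hmox1, was at 248 and 433 CPM. Hemoglobin RNA was higher in the same library: 51.8% of GC and 23.7% of control members held a UMI of the 4 hemoglobin genes. In trabecular mature neutrophils Hbb-bs was at 6449 CPM in control and 15813 CPM in GC, above both callus libraries, where Hmox1 was far higher. Any link between hemoglobin RNA and Hmox1 was not tested. Thinned to 500 UMIs, 47.5% of GC and 18.7% of control members held a Hmox1 UMI, against 1.85% and 1.15% of B-lineage cells.

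The counts for receptor genes were near the shares over all genes, 11.5% higher and 13.4% lower. Among 20 cytokine receptors 1 was higher and 4 lower, with Tnfrsf1b, the second TNF receptor, at 564 and 909 CPM and Il4ra at 161 and 79.6 CPM. Among 9 chemoattractant receptors 1 was higher, the platelet activating factor receptor Ptafr at 888 and 1431 CPM, and 1 lower, the formyl peptide receptor Fpr2 at 250 and 150 CPM. The only higher gene of these lists, Tnfrsf1b for cytokines and Ptafr for chemoattractants, each came within 1.5-fold in 1 setting, at log2 ratios of 0.50 with at least 5% calprotectin and 0.56 with cells thinned to 500 UMIs. Cxcr4, the marrow retention receptor, was at 1080 and 771 CPM. Among 23 pattern and Fc receptors 4 were higher and 2 lower, including Tlr2 at 278 and 462 CPM and Trem1, an amplifier of inflammatory signals, at 667 and 377 CPM. With at least 5% calprotectin Tlr2 had a log2 ratio of 0.36, within 1.5-fold. Of 22 apoptosis and survival genes 4 were higher and 2 lower. Bcl2l11 (BIM), a proapoptotic BH3 protein, was at 553 and 968 CPM (log2 ratio 0.80, and 0.55 with at least 5% calprotectin), the stress gene Gadd45b at 521 and 1309 CPM, and the cell cycle inhibitor Cdkn1a, 1 of the 2 lower genes, at 583 and 280 CPM. The antiapoptotic gene Mcl1, at 2351 and 1574 CPM, was within 1.5-fold on the scale with 5 CPM added. Of the interferon-stimulated genes 6 of 18 were lower and 2 higher in callus, and 17 of 29 were lower and none higher in trabecular bone. Ifitm1, a membrane antiviral protein, was at 1164 and 696 CPM in callus and at 2321 and 455 CPM in trabecular bone.

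Granule genes need separate reading because the rule used them. Ngp, Camp and Ltf limited the members, so their values (82.9 and 180 CPM for Ngp) are not a result. Without them, 3 of the 14 granule genes measured were higher in GC and none lower: Olfm4, at only 8.93 and 19.9 CPM and within 1.5-fold in 9 of 19 settings, Lcn2, an iron siderophore binder, at 326 and 596 CPM and Wfdc21 at 391 and 646 CPM. Azurophil genes appeared lower in 5 of 6 (Mpo, Elane, Prtn3, Ctsg and Ms4a3), but these rested on very few cells. In control, 4 of 1435 cells held 99.7% of the UMIs of the 5 genes, and in GC 2 of 1123 cells held 92.9%. Only 0.697% of control and 0.801% of GC cells held any UMI of the 5 genes, so their ratios describe a handful of cells and not the members as a whole. Ctsd, a lysosomal protease on the same list, was at 1101 and 1898 CPM.

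Callus members differed widely from trabecular mature neutrophils, although the latter are not the same population. Of the UMIs in nearly empty trabecular droplets, 9.17% (control) and 4.38% (GC) were calprotectin, against 0.101% in control callus. The calprotectin share in free RNA of trabecular bone is above the 1% limit of the rule. Ngp, Camp and Ltf made up 1.41% (control) and 0.668% (GC) of the UMIs in those trabecular droplets, against 0.0096% in control callus. Of 3305 genes of at least 50 CPM in any of the 4 libraries, 1177 (35.6%) were higher in callus by at least 1.5-fold in both treatments and 623 (18.9%) lower. Of 18 genes on a list of tissue neutrophil genes, written with earlier results of these data known, 16 were higher and none lower. Cstb, a cathepsin inhibitor, was at 3952 and 6117 CPM in callus and at 205 and 208 CPM in trabecular bone. Cd44, the hyaluronan receptor, was at 2788 and 3410 CPM against 647 and 575 CPM, and the axon guidance ligand Sema4d at 584 and 1169 CPM against 106 and 98.5 CPM. Rgs1, which dampens chemokine receptor signals, was at 1499 and 330 CPM against 189 and 32.8 CPM, lower in GC in both tissues. Granule genes ran the other way: leaving out Ngp, Camp and Ltf, 11 of 13 were lower in callus in both treatments, with Mmp8 at 82.5 and 121 CPM against 1115 and 3549 CPM. Chil3, a chitinase-like protein, was at 22.5 and 35.8 CPM in callus and at 262 and 6236 CPM in trabecular bone. The part of free RNA in these granule gene and Chil3 values was not tested. The genes highest over trabecular bone by ratio were cartilage and bone matrix genes such as Col2a1, Acan and Col1a1, which were at most 6.98 CPM in trabecular members. Col2a1 and Acan were also present in callus B-lineage cells, at 2097 and 281 CPM in control.

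Against the callus barcodes that carry granule genes (112 in control and 180 in GC), the members were higher in Ifitm1, Wfdc17, Cyp4f18, Bcl2a1b, Gpr35, Itgax and Mefv and lower in Camp, Ngp, Ltf, Chil3, Cd177, Fcnb and Cybb. The rule itself set part of this difference, since it used Camp, Ngp and Ltf. The GC and control order of Cxcl2, Il1b and Hmox1 was the same in those granule gene-rich cells, with log2 ratios of -2.59, -4.03 and 1.78, against -2.13, -2.45 and 1.60 in the members.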

How the data were processed

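UMI counts of 4 libraries, 1 per tissue and treatment, were analysed. The authors deposited unnormalized counts per gene and barcode, which the file headers credit to Cell Ranger 4 (4.0.0 for GC callus). The submitters' processing notes name Cell Ranger 5.0.1, Seurat 3.2.0 and mm10. The single-cell settings are not given in the sources used here. Intervals came from scipy 1.17.1, doublet scores from scikit-learn 1.9.0, and figures from matplotlib 3.10.9, run in Python 3.11.15 together with pandas 2.3.3, numba 0.67.0 and numpy 2.4.6.

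Counts were summed over the members of a library and scaled to CPM, with exact Poisson intervals. Folds have exact conditional intervals, and all intervals are at 95% and cover counting error only. Log2 ratios added 5 CPM. Genes needed 50 UMIs over both libraries, and 1.5-fold was the limit for a count. B-lineage cells had at least 0.3% Cd79a, Cd79b and Ms4a1 and under 1% calprotectin. No doublets were removed in the values reported, and their removal was an alternative. Nearly empty droplets are barcodes of 10 to 100 UMIs. The computation was tested on simulated data.

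Members, marker genes and gene lists were chosen with earlier results of these data known. The rule named all genes of 21 pathway and 16 marker lists (534 of 537 symbols found), the 10 highest and lowest ratios of GC over control among genes of at least 100 CPM, the 15 genes highest over other callus barcodes, and the 10 highest and lowest against granule gene-rich and trabecular neutrophils. Promoters came from RefSeq on GRCm38.p6. Alternatives changed the cell filters, member limits, markers of other cells, calling against nearly empty droplets, doublets, pseudocount, minimum counts, fold, weighting, depth and denominator.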

Additional observations from a re-analysis of the deposited data

Results flagged for a closer look

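Among 263 named genes measured in both tissues and at 100 CPM or more in a callus library, 5 passed 1.5-fold in opposite directions in callus and trabecular mature neutrophils, also when trabecular members were limited to at least 10% calprotectin. The difference was not tested. Cxcl3 had a log2 ratio of -3.12 in callus and 0.91 in trabecular bone, a difference of -4.03. Errfi1, an inhibitor of EGF receptor signaling, had -1.16 and 1.04 (difference -2.20), and Il4ra, the interleukin 4 receptor, had -0.97 and 0.72 (difference -1.69). Acod1, the enzyme that makes itaconate, had 0.67 and -1.51 (difference 2.18), though with at least 5% calprotectin its callus ratio was 0.53, within 1.5-fold. Atf3 had 1.17 and -0.94 (difference 2.12). In the same direction, 27 of the 263 passed 1.5-fold in both tissues, counted without the limit of at least 10% calprotectin. The 2 counts are thus not made alike. The 263 genes were chosen partly by their ratios, and the share over all genes was not computed.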

How the results depend on the processing

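No paired analysis was possible because each condition had 1 library. Of 127 genes named in the text and measured in callus, 90 passed 1.5-fold in the setting reported, and 65 of them did so in all 19 settings run for single genes. Some of the 19 could not change a gene. The minimums of 20 and of 200 UMIs per gene do not enter the ratio of a single gene. Calling against nearly empty droplets left out 0 members. Each count out of 19 therefore includes settings that repeat the value reported. A limit of 3000 UMIs per cell and a trabecular limit of 10% calprotectin were chosen after seeing the data. Under the trabecular limit, 80 of the trabecular log2 ratios moved beyond their counting interval, 42 did not, and Cd74 turned to -0.57. Of 47 past 1.5-fold, 31 remained so, and 7 others newly passed.

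The share of mature neutrophils became 18.2% in control and 12.3% in GC among barcodes of at least 1000 UMIs, 46.7% and 33.1% among those of at most 3000 UMIs, which leaves out most other callus cells, 16.4% and 12% with at least 2% calprotectin, and 8.34% and 5.59% with at least 5%. It became 21.1% in control among barcodes of at most 5% mitochondrial UMIs. Control stayed above GC in each. The counts of 633 genes higher and 737 lower in GC became 401 and 373 with 20 CPM added, 331 and 289 with at least 200 UMIs per gene, and 187 and 182 at a fold of 2, where the settings themselves call fewer genes. The count lower in GC became 416 with at least 5% calprotectin and 368 with cells thinned to 500 UMIs.

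Of 22 reversed callus gene ratios, 11 were those of azurophil genes, which rested on 4 control and 2 GC cells. With at least 5% calprotectin the azurophil list had a median log2 ratio of 5.05, with Prtn3 at 5.41, Elane at 5.34, Mpo at 4.75, Ctsg at 2.67 and Ms4a3 at 2.31, and Etfb turned to 0.87. With at least 2%, Elane was at 0.10 and Mpo at 0.16. With at most 3000 UMIs per cell the list was at 0.77, Elane at 1.56, Prtn3 at 0.81, Mpo at 0.65 and Ms4a3 at 0.54. With cells thinned to 500 UMIs the list was at 0.72 and Etfb at 0.22. The 2 genes reversed in that setting were Etfb and Cd74, so no azurophil gene turned there. Camp turned to -0.25 with granule genes under 0.1%. Without doublets Hbegf turned to 0.26, Acan to 0.33, Ccr2 to 0.051 and Cd74 to -0.32. Cd74 was also at -1.20 with at least 5% calprotectin, -0.10 without cells rich in monocyte markers and -0.24 when thinned, and Col1a1 was at -0.0064 with at least 2% calprotectin. For these genes and Etfb the cause was not tested. Precision was limited by depth for genes such as Fkbp5, with 32 and 34 UMIs, and by the single library of each condition for all genes.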
